A study of Homo sapiens with 6 samples.

Results

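Inflammatory cytokines and their receptors were followed in HK-2 cells treated with oxidized low-density lipoprotein (OX-LDL), that is, lipoprotein particles modified by oxidation. The HK-2 line was derived from epithelium of the human proximal tubule and immortalized. The 10 genes, IL6, LIF, IL11, IL1A, IL1B, IL1R1, IL1RAP, IL18, TNF and CSF1R, were taken by name from a deposited table of 58825 genes, and each name matched 1 row. Poly(A) RNA was sequenced from 3 libraries of untreated HK-2 cells (Control) and 3 libraries of HK-2 cells given OX-LDL at 25 μg/ml over 48 h. The methods describe serum starvation before OX-LDL was added and do not say how the Control cells were handled at that step. All 6 libraries came from this 1 line, and the labels do not say whether the 3 libraries of a group were separate cultures, so p-values measure the spread between libraries, which may be technical.

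Interleukin 6 (IL6), LIF and interleukin 11 (IL11) are secreted cytokines that share the receptor chain gp130 (gene IL6ST) and signal through JAK kinases and STAT3. Interleukin 1α and 1β (IL1A, IL1B) bind the receptor IL1R1, which signals together with the accessory protein IL1RAP, and interleukin 18 (IL18) is a relative of both that is cut to its active form by caspase 1. TNF is a cytokine of the NF-κB and cell death pathways, and CSF1R is the receptor of the macrophage growth factors CSF1 and interleukin 34. In the kidney, injured tubular cells are known as a source of several of these cytokines, whereas CSF1R is known mainly from macrophages.

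After OX-LDL, the cytokines IL6, LIF, IL11 and IL18 were higher. The mean level was 1.63 times that of Control for IL6, 1.41 times for LIF, 2.21 times for IL11 and 2.14 times for IL18 (FPKM, n = 3 per group). Under other settings and with single libraries left out, IL6 and IL18 were called in all 16 alternatives, LIF in 5 of 16 and IL11 in 3 of 15. IL1RAP, the co-receptor of IL-1, had nearly the same mean in both groups. The mean of IL1R1 was 2.35 times and that of TNF 0.306 times that of Control, but neither passed the test after adjustment. IL1A, IL1B and CSF1R were too low to be tested at the chosen minimum.

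Total counts were between 62561347 and 76797607 per library, and about 4 deposited counts corresponded to 1 read pair, since exactly 4 counts occurred in 3.26 times as many genes as the counts on either side of it. A library with at most 12 counts of a gene, which is 3 read pairs, was taken as not detecting it. Such limits cover counting error only. Levels are given as FPKM, which divide fragments by transcript length and library size, so that genes can be compared with each other. Log2 fold changes are OX-LDL over Control and come from edgeR's quasi-likelihood test on the counts of the 19510 genes whose mean reached 0.1 FPKM, with p-values adjusted over all of them. Of all genes tested, 15.3% had an adjusted p-value under 0.05, 7.91% as higher and 7.42% as lower in OX-LDL. All 4 epithelial markers were detected, and their summed level was between 115 and 140 FPKM in Control and between 159 and 199 FPKM in OX-LDL. KRT8, a keratin gene, was higher with OX-LDL (log2 fold change 0.83, edgeR adjusted p = 0.0116), and KRT18 had a log2 fold change of 0.59 without overlap (adjusted p = 0.123). The groups of EPCAM and CDH1, the other markers of that list, overlapped. CDH1, the gene of E-cadherin, added little to the sum. It had 15, 66 and 73 counts across Control (mean 0.0968 FPKM) and 61, 34 and 71 across OX-LDL (mean 0.106 FPKM). The part of the epithelial markers in the results on the cytokines was not tested. Of 10 proximal tubule markers, 8 were detected in a group. In Control, PAX8 was at 46.6 and CDH6 at 10.7 FPKM and SLC5A2, the next highest, at 0.263 FPKM, while LRP2 and SLC22A6 had 0 counts in every library.

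Of the 10 genes, 6 exceeded 12 counts in each of the 6 libraries (LIF, IL6, IL18, IL1RAP, IL1R1 and IL11). TNF exceeded it in 3 Control and 2 OX-LDL libraries, IL1A and IL1B each in 2 Control libraries and 1 OX-LDL library, and CSF1R in 0 Control and 3 OX-LDL libraries. In Control, the order of the mean levels was LIF, IL18, IL1RAP, IL6, IL1R1, TNF, IL11, IL1B, IL1A and CSF1R, from 14.0 ± 1.68 FPKM (SD, n = 3) for LIF to 0.0176 ± 0.00807 FPKM for CSF1R. The ranges of neighbours overlapped between IL18 and IL1RAP, IL1R1 and TNF, IL1B and IL1A, and IL1A and CSF1R, so these pairs could not be ordered beyond their spread. In OX-LDL, IL6 stood above IL1RAP and IL11 above TNF, with no overlap between IL6 and IL1RAP. The ranges of LIF and IL18 overlapped there, as did those of CSF1R and TNF, TNF and IL1A, and IL1A and IL1B.

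**Figure D1:**
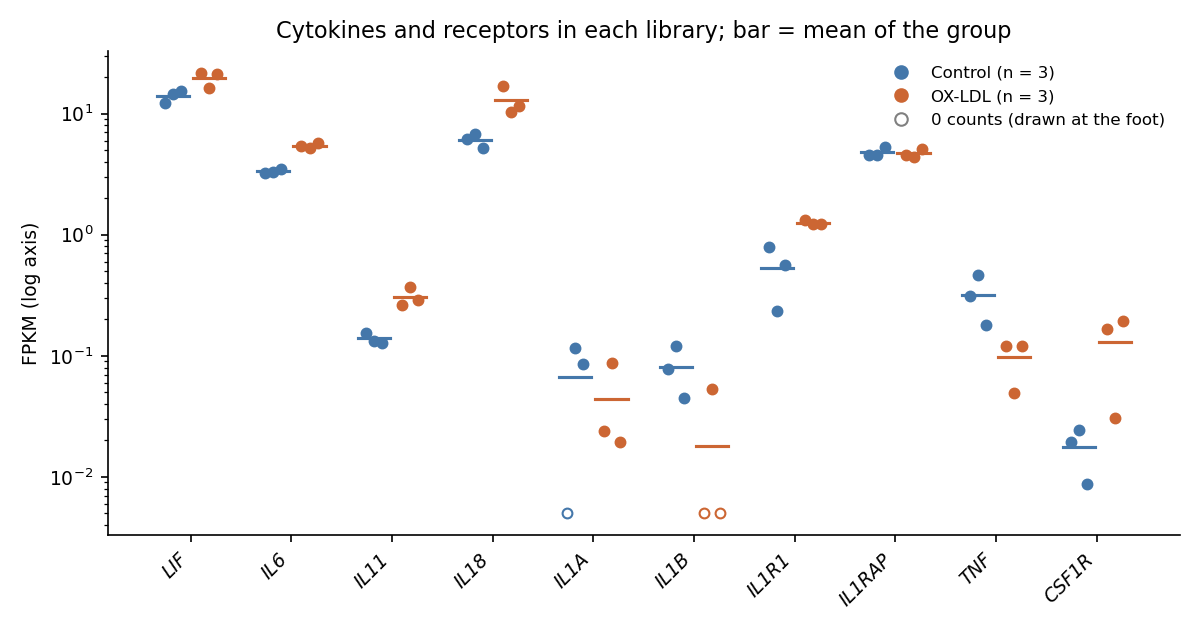
FPKM (log axis) of the 10 genes in each of the 3 Control (blue) and 3 OX-LDL (orange) libraries, with bars at the group means and open circles at the foot for libraries with 0 counts. All OX-LDL points of LIF, IL6, IL11, IL18, IL1R1 and CSF1R lie above their Control points, those of TNF lie below, and those of IL1RAP, IL1A and IL1B overlap.

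The table was read at gene level, so the sequence next to the start of a gene is shown only to set the genes side by side. The 250 bases before the RefSeq start of IL6, IL11 and TNF are printed as those of the matched cytokine genes whose groups did not overlap, IL6 and IL11 with higher and TNF with lower values in OX-LDL, although TNF did not pass the test. The groups of the receptor genes IL1R1 and CSF1R did not overlap either, and their windows were searched but are not printed. The sequences are from RefSeq on GRCh38.p14, in which 8 of the 10 genes were matched (LIF and IL18 were not). They lie at chr7:22726950-22727199 (plus strand) for IL6, chr19:55370464-55370713 (minus strand) for IL11 and chr6:31575315-31575564 (plus strand) for TNF. The RefSeq start of IL6 lies inside the interval that the deposited table gives for the gene. Each is written 5′ to 3′ with matches to the motifs searched in capitals.
IL6: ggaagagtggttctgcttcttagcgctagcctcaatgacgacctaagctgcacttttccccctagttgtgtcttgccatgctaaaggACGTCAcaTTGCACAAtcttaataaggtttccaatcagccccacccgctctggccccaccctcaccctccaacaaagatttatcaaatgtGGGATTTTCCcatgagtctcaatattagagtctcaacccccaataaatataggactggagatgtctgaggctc
IL11: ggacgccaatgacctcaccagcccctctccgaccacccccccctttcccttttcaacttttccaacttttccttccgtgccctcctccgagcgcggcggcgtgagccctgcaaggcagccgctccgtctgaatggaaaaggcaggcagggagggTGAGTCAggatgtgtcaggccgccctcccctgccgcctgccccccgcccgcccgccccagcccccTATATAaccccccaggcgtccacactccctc
TNF: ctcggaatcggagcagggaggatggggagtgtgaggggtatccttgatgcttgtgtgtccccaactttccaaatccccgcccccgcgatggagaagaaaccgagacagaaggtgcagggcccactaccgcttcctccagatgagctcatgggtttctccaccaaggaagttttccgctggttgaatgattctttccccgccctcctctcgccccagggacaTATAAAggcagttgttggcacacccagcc
Both strands were searched for 5 motifs: GGG, any pair of bases, TT, any base and CC for NF-κB, TGANTCA for AP-1, ACGTCA for the core of the cyclic AMP response element, TTGCNNAA for C/EBP and TATANA for a TATA box. In IL6, ACGTCA started at -163, TTGCACAA at -155 and GGGATTTTCC at -73, counted from the start site with the base before it as -1. In IL11, TGAGTCA started at -96 and TATATA at -31, and in TNF only TATAAA was found, at -29. Of the receptor windows, 1 of the 2 start sites of CSF1R held TGAGTCA at -34. In IL1R1, 1 of the start sites held TTTATA, the TATA letters on the other strand, at -229 and -124. The windows of IL1A, IL1B and IL1RAP, whose groups overlapped, were searched as well. IL1A held TATAAA at -239 and TGACTCA at -12 from its first start site. The window of its second start site overlaps the first and held the same TGACTCA, there at -105, and TGAGTCA at -55. IL1B held TTGCAAAA at -215, and no match was found in IL1RAP. Within a window, no match overlapped another. Of the 35116 windows of this length in the RefSeq table, 5.07% held the NF-κB letters, 6.57% the AP-1 letters, 7.10% the cyclic AMP element letters, 9.05% the C/EBP letters and 17.7% the TATA letters. A match is a description of the letters and not of a bound site.

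Among the ligands of gp130, IL6 (ENSG00000136244; chromosome 7, 22725884 to 22732002) was at 3.24, 3.29 and 3.46 FPKM in Control replicates 1 to 3 and at 5.39, 5.18 and 5.74 FPKM in OX-LDL replicates 1 to 3. The groups did not overlap, and the spread within each was small. The means were 3.33 ± 0.113 and 5.44 ± 0.282 FPKM (mean ± SD, n = 3 each), and the log2 fold change was 0.73 (standard error, SE, 0.12, edgeR adjusted p = 0.0104). In bulk RNA, a change in the number of cells that express a gene cannot be told apart from a change in RNA per cell. With 1 library left out in turn, the adjusted p-value of IL6 lay between 0.0166 and 0.0476.

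LIF (ENSG00000128342; chromosome 22, 30240453 to 30246759), a cytokine named for its action on leukaemia cells, was the most abundant of the 10 genes in both groups. It was at 12.1, 14.4 and 15.4 FPKM in the Control libraries and 21.8, 16.2 and 21.3 FPKM after OX-LDL. OX-LDL replicate 2 stood only just above Control replicate 3, while both other OX-LDL libraries were well above. The log2 fold change was 0.53 (SE 0.14, edgeR adjusted p = 0.0472). The adjusted p-value was 0.0187 without OX-LDL replicate 2. It was 0.122, 0.126 and 0.0660 without Control replicate 1, 2 and 3, and 0.140 and 0.147 without OX-LDL replicate 1 and 3. The call was thus kept in 1 of these 6 fits, which hold fewer libraries than the main fit. The log2 fold change in them was between 0.44 and 0.65.

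IL11 (ENSG00000095752; chromosome 19, 55364382 to 55370463), a gp130 cytokine known from fibrosis, had 37, 32 and 28 counts across Control and 53, 91 and 71 across OX-LDL, or between 7 and 22.75 read pairs. Each OX-LDL library was above each Control library at this low depth. The level rose from 0.139 ± 0.0144 to 0.308 ± 0.0559 FPKM (mean ± SD, n = 3 each), with a log2 fold change of 1.18 (SE 0.31, edgeR adjusted p = 0.0479). Leaving out any 1 of the 6 libraries brought the adjusted p-value to between 0.0869 and 0.138, and limma on log2(FPKM + 0.1) gave 0.0885. Genes on the other strand overlap IL6 (AC073072) and LIF (LIF-AS1 and AC004264). The libraries were made to keep the strand, but the labels do not say whether the counting used it, so their reads cannot be told apart with certainty.

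The partners of these ligands were read from a list of 19 genes of the gp130 pathway, of which 16 could be tested, 6 were called higher and 1 lower in OX-LDL (43.8% called, beside 15.3% of all genes). The share called over all genes rose with the minimum level, to 3152 of 12259 genes at a minimum of 1 FPKM. The median log2 fold change of the 16 was 0.24, beside -0.0043 over all genes tested. LIFR, the specific receptor chain of LIF, was at 0.755, 0.845 and 0.773 FPKM in the Control libraries and 1.58, 1.29 and 1.87 FPKM after OX-LDL. Its groups did not overlap, and its log2 fold change was 1.03 (SE 0.15, edgeR adjusted p = 0.00878). The kinase JAK1 rose from 50.9 ± 3.07 to 69.6 ± 3.52 FPKM (log2 fold change 0.48), STAT3, the transcription factor it activates, from 9.21 ± 0.462 to 12.3 ± 0.541 FPKM (0.45) and PIAS3, an inhibitor of STAT3, from 8.08 ± 0.327 to 11.5 ± 0.202 FPKM (0.53; mean ± SD, n = 3 each throughout). Their adjusted p-values in edgeR's test were 0.0112, 0.0114 and 0.00668, and LIFR, JAK1, STAT3 and PIAS3 remained under 0.05 in all 16 alternatives. On the other strand, JAK1 overlaps RAVER2 (mean 2850 counts), PIAS3 overlaps NUDT17 (mean 300 counts) and LIFR overlaps LIFR-AS1 (mean 13.3 counts). The part of these overlaps in the calls was not tested.

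The other called genes of this list are named after their values were seen. OSMR, the receptor chain of oncostatin M, was at 15.0, 12.7 and 10.7 FPKM in the Control libraries and 20.7, 20.2 and 21.4 FPKM after OX-LDL (log2 fold change 0.73, edgeR adjusted p = 0.0145). Its adjusted p-value rose to 0.0596 when Control replicate 2 was left out and to 0.0554 when OX-LDL replicate 3 was, and stayed under 0.05 when any of the other libraries was. It overlaps RICTOR on the other strand, which had a mean of 3764 counts. SOCS3, the feedback inhibitor that STAT3 induces, was at 5.52, 4.92 and 5.00 FPKM in Control and rose to 7.11, 7.59 and 6.90 FPKM (log2 fold change 0.51, adjusted p = 0.0219), and the phosphatase gene PTPN11 fell from 71.2 ± 2.32 to 56.7 ± 0.672 FPKM (log2 fold change -0.30, adjusted p = 0.0209). Of the fits that left out a library, SOCS3 was called only without Control replicate 1 or OX-LDL replicate 2 and otherwise had an adjusted p of up to 0.0802, and PTPN11 only without Control replicate 3 or OX-LDL replicate 2, otherwise up to 0.0766. PTPN11 overlaps RPL6 on the other strand, which had a mean of 60500 counts.

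The shared chain IL6ST was at 32.3, 30.0 and 28.3 FPKM in the Control libraries and 26.9, 22.7 and 24.8 FPKM after OX-LDL. Each OX-LDL library was below each Control library, but the log2 fold change of -0.25 (95% interval -0.46 to -0.046) missed the threshold (edgeR adjusted p = 0.102). IL6R, the specific chain of IL6, was at 1.896, 2.44 and 2.32 FPKM in the Control libraries and 0.981, 2.87 and 3.57 FPKM after OX-LDL. OX-LDL replicate 1 was the lowest and OX-LDL replicate 3 the highest of the 6 libraries, and the interval of the log2 fold change ran from -0.81 to 1.20. IL11RA, the specific chain of IL11, was at 0.149 ± 0.0338 FPKM in Control beside 0.153 ± 0.00934 FPKM with OX-LDL (log2 fold change 0.072, 95% interval -0.64 to 0.78). OSM and CNTFR, a ligand and a receptor chain of the same family, had 0 counts in all libraries.

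**Figure D2:**
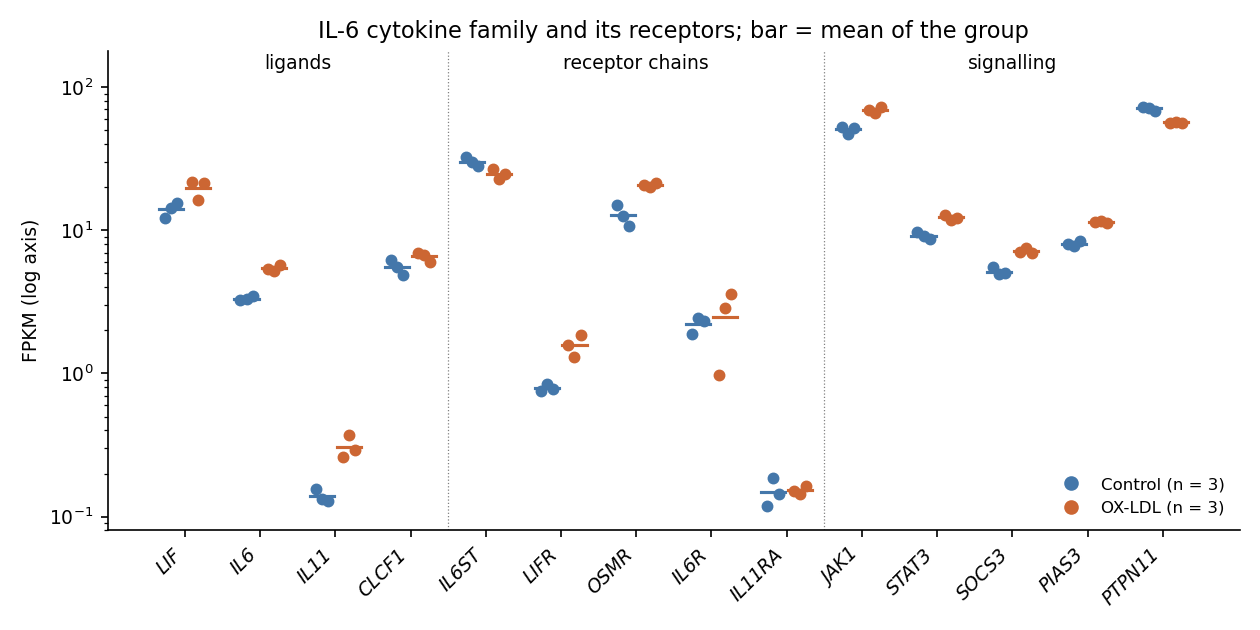
FPKM (log axis) of ligands, receptor chains and signalling genes of the gp130 family in each of the 3 Control (blue) and 3 OX-LDL (orange) libraries, with bars at the group means. LIF, IL6, IL11, LIFR, OSMR, JAK1, STAT3, SOCS3 and PIAS3 are higher in every OX-LDL library than in all of Control, IL6ST and PTPN11 are lower, and CLCF1, IL6R and IL11RA overlap.

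IL18 (ENSG00000150782; chromosome 11, 112143253 to 112164093) was at 6.17, 6.73 and 5.20 FPKM in the Control libraries and 17.0, 10.3 and 11.5 FPKM after OX-LDL. All OX-LDL libraries were above all Control libraries, with OX-LDL replicate 1 the highest. The means were 6.03 ± 0.776 and 12.9 ± 3.54 FPKM (mean ± SD, n = 3 each), and the log2 fold change was 1.13 (SE 0.20, edgeR adjusted p = 0.0146). Without OX-LDL replicate 1 it was 0.89, under a 2-fold change, with an adjusted p-value of 0.0304. Over the 6 fits that left out 1 library, the adjusted p-value stayed between 0.0136 and 0.0476.

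The partners of IL18 were at lower levels. Its soluble antagonist IL18BP was at 1.43, 1.88 and 1.91 FPKM in the Control libraries and 3.04, 2.23 and 2.44 FPKM after OX-LDL, without overlap, and had a log2 fold change of 0.60 (edgeR adjusted p = 0.0643). IL18BP lies opposite NUMA1, which had a mean of 8558 counts. The receptor chain IL18R1 was at 0.0790 ± 0.0265 FPKM in Control beside 0.167 ± 0.0703 FPKM with OX-LDL (log2 fold change 1.11, adjusted p = 0.157), and its partner chain IL18RAP had 0 counts in all libraries. CASP1, the gene of the protease that activates IL-1β and IL-18, also had 0 counts in all 6 libraries. NLRP3, a sensor of the inflammasome in which that protease acts, had 8 counts in OX-LDL replicate 1 and 0 counts in the others. CASP1 and NLRP3 were singled out after their values were seen. Of the 16 listed genes of IL-1 processing and signalling, 13 were detected in a group. CASP4, another caspase gene, was at 0.429 ± 0.0451 FPKM in Control beside 0.668 ± 0.0892 FPKM with OX-LDL (SD, n = 3 each). Its groups did not overlap (log2 fold change 0.66, edgeR adjusted p = 0.0556). NLRC4 had 15, 16 and 15 counts across Control and 41, 26 and 38 across OX-LDL. NLRP1, PYCARD and GSDMD were detected in both groups, which overlapped.

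The IL-1 ligands were near the detection limit. IL1A (ENSG00000115008; chromosome 2, 112773915 to 112784590) had 0, 23 and 15 counts across Control and 4, 17 and 4 across OX-LDL. IL1B (ENSG00000125538; chromosome 2, 112829751 to 112836903) had 24, 34 and 12 counts across Control and 0, 16 and 0 across OX-LDL. The groups overlapped for both genes, with 0 to 8.5 read pairs per library behind these values. When all genes with any count were tested, the log2 fold change was -0.59 for IL1A (unadjusted p = 0.677, adjusted p = 0.849) and -2.11 for IL1B (unadjusted p = 0.190, adjusted p = 0.433), with standard errors of 1.35 and 1.47. No difference in either ligand was shown, and IL1A also varied widely within Control. IL1RN, the gene of the IL-1 receptor antagonist, had 11 counts in Control replicate 2, 8 in OX-LDL replicate 2 and 0 in the others.

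IL1R1 (ENSG00000115594; chromosome 2, 102064544 to 102179866) was at 0.797, 0.234 and 0.564 FPKM in the Control libraries and 1.32, 1.22 and 1.22 FPKM after OX-LDL. The Control libraries were spread widely, with Control replicate 2 the lowest, whereas the OX-LDL libraries lay close together above them. The log2 fold change was 1.25 (SE 0.41, edgeR adjusted p = 0.0861), and it was between 0.89 and 1.67 with 1 library left out, with adjusted p-values of 0.0543 to 0.182. DESeq2 gave an adjusted p-value of 0.00655 and limma on log2(FPKM + 1) gave 0.0441. IL1R2, the decoy receptor, had 47, 17 and 86 counts across Control and 97, 28 and 90 across OX-LDL, in overlapping groups (log2 fold change 0.58, 95% interval -1.15 to 2.31). In both genes replicate 2 was the lowest Control library.

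IL1RAP (ENSG00000196083; chromosome 3, 190514051 to 190657196) was at 4.55, 4.55 and 5.28 FPKM in the Control libraries and 4.58, 4.34 and 5.15 FPKM after OX-LDL. The groups overlapped, although OX-LDL replicate 2 was the lowest and Control replicate 3 the highest of the 6 libraries. The log2 fold change was 0.0013 with a 95% interval from -0.24 to 0.24 (edgeR adjusted p = 0.994), so that a change beyond 0.24 on the log2 scale in either direction lay outside the interval. In Control the mean of IL1RAP was 4.79 ± 0.425 FPKM, beside 0.532 ± 0.283 FPKM for IL1R1 (SD, n = 3), and the ranges did not overlap.

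Downstream of the IL-1 receptors, 12 of 16 listed genes could be tested, with 0 called higher and 1 lower (8.33%, beside 15.3% of all genes). The gene called was IRAK2, a kinase-like adaptor of IL-1 signalling, which fell from 5.11 ± 0.601 to 3.25 ± 0.321 FPKM (mean ± SD, n = 3 each; log2 fold change -0.62, SE 0.13, edgeR adjusted p = 0.0237). With 1 library left out, it was called only without Control replicate 1, and without the others its adjusted p-value was between 0.0509 and 0.0863. It was called in 9 of the 10 other alternatives. The median log2 fold change of the 12 genes was 0.0030. Of the 14 IL-1 family partners, 5 could be tested and 0 were called by edgeR. However, 3 of these 5 had an unadjusted p-value under 0.05 in that test (IL18BP, IL18R1 and SIGIRR). These 3 had higher levels in OX-LDL, beside 15.3% of all genes on that side. IL18R1 passed the minimum of 0.1 FPKM only through OX-LDL, with a mean of 0.167 FPKM there and 0.0790 FPKM in Control.

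TNF (ENSG00000232810; chromosome 6, 31575565 to 31578336) had 46, 70 and 25 counts across Control and 16, 8 and 19 across OX-LDL. Its levels were 0.311, 0.467 and 0.179 FPKM in Control and 0.121, 0.0494 and 0.122 FPKM in OX-LDL. Every OX-LDL library was below every Control library, with 2 to 4.75 read pairs behind the OX-LDL values and 6.25 to 17.5 behind those of Control. The log2 fold change was -1.61 (95% interval -2.91 to -0.31, standard error 0.55), where edgeR gave an unadjusted p = 0.0220 and an adjusted p = 0.0977. The adjusted p-value was above 0.05 in all 15 alternatives that could test the gene, from 0.0532 in DESeq2 to 0.276 without Control replicate 2, and the log2 fold change was below 0 in each.

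Of 13 partners of TNF, 11 could be tested, with 0 called higher and 2 lower (18.2%, beside 15.3% of all genes, a similar share). LTB, a relative of TNF whose gene lies beside it, was at 1.00, 1.15 and 0.851 FPKM in the Control libraries and 0.361, 0.186 and 0.341 FPKM after OX-LDL. The groups were far apart, with a log2 fold change of -1.71 (SE 0.33, edgeR adjusted p = 0.0196). LTB stayed called without Control replicate 3 or OX-LDL replicate 2, whereas its adjusted p-value was between 0.0509 and 0.0729 without any 1 of the other 4 libraries. FADD, the adaptor of death receptors, fell from 17.4 ± 2.77 to 12.4 ± 0.375 FPKM (mean ± SD, n = 3 each; log2 fold change -0.45, adjusted p = 0.0495), but with 1 library left out it was called only without Control replicate 1, and its adjusted p-value was between 0.0820 and 0.150 without the others. The main TNF receptor gene TNFRSF1A was at 18.9 ± 4.12 and 21.6 ± 2.66 FPKM (log2 fold change 0.23, 95% interval -0.16 to 0.62), far above TNFRSF1B at 0.0380 ± 0.0245 and 0.0392 ± 0.0274 FPKM.

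CSF1R (ENSG00000182578; chromosome 5, 150053291 to 150113372) had 9, 12 and 4 counts across Control and 65, 16 and 94 across OX-LDL. It was not detected in Control and exceeded the limit in every OX-LDL library, in OX-LDL replicate 2 by 4 read pairs against 3. Its mean OX-LDL level, per library size, was at least 5.02-fold higher than the limit of 12 counts per Control library, and at least 4.36-, 6.89- and 3.80-fold higher without OX-LDL replicate 1, 2 and 3. When all 31096 genes with any count were tested, of which 7.46% were called and 3.77% called higher, its adjusted p-value was 0.0661 in edgeR's test (unadjusted p = 0.00601). RPL7P1, a ribosomal protein pseudogene on the other strand inside CSF1R, had between 7011 and 11160 counts in every library. Its part in the CSF1R counts was not tested.

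Because CSF1R is known from macrophages, it was set beside 11 leukocyte and macrophage markers. AIF1, TYROBP, CD163 and SPI1 had 0 counts in all 6 libraries, LYZ had at most 8 counts, and PTPRC, which all leukocytes express, had 8 counts in OX-LDL replicate 1 and 0 in the others. CD14 had 51, 42 and 26 counts across Control and 45, 39 and 26 across OX-LDL. FCER1G had 16, 32 and 24 counts across Control and 29, 0 and 10 across OX-LDL, and ITGAM 8, 0 and 23 across Control and 33, 6 and 14 across OX-LDL. Among the markers detected in a group, the lowest OX-LDL library was replicate 2 for ITGAM, FCER1G and CD68, as for CSF1R. It was replicate 3 for CD14 and replicate 1 for ITGB2. The groups of ITGAM, FCER1G and CD14 overlapped. The summed level of the list was between 4.21 and 8.89 FPKM in Control and between 10.6 and 15.5 FPKM in OX-LDL. Most of it was CD68, also known from the lysosomes of other cells, with 5.21 ± 2.39 FPKM in Control beside 10.8 ± 2.45 FPKM with OX-LDL (mean ± SD, n = 3 each; log2 fold change 1.08, edgeR adjusted p = 0.0858). Of the 11 markers, 5 were detected in a group, 4 could be tested and 1 was called (25%, beside 15.3% of all genes), the integrin gene ITGB2 (log2 fold change 0.60, adjusted p = 0.0458). ITGB2 was at 0.833 ± 0.0346 FPKM in Control beside 1.24 ± 0.175 FPKM with OX-LDL (SD, n = 3 each). This call, close to the threshold, was not followed over the alternatives.

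CSF1, the main ligand of CSF1R, was lower after OX-LDL. It was at 14.3, 17.7 and 12.8 FPKM in the Control libraries and 6.89, 7.00 and 6.17 FPKM after OX-LDL. The groups did not overlap, and the log2 fold change was -1.13 (SE 0.13, edgeR adjusted p = 0.00402), with all 16 alternatives under 0.05. IL34, the other ligand, was at 0.128 ± 0.0303 and 0.121 ± 0.0733 FPKM (mean ± SD, n = 3 each), with a log2 fold change of -0.022 and a 95% interval from -1.39 to 1.34. Of the 7 genes in the list of CSF1R partners and related growth factors, 3 could be tested, and CSF1 was the 1 called (33.3%, beside 15.3% of all genes).

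**Figure D3:**
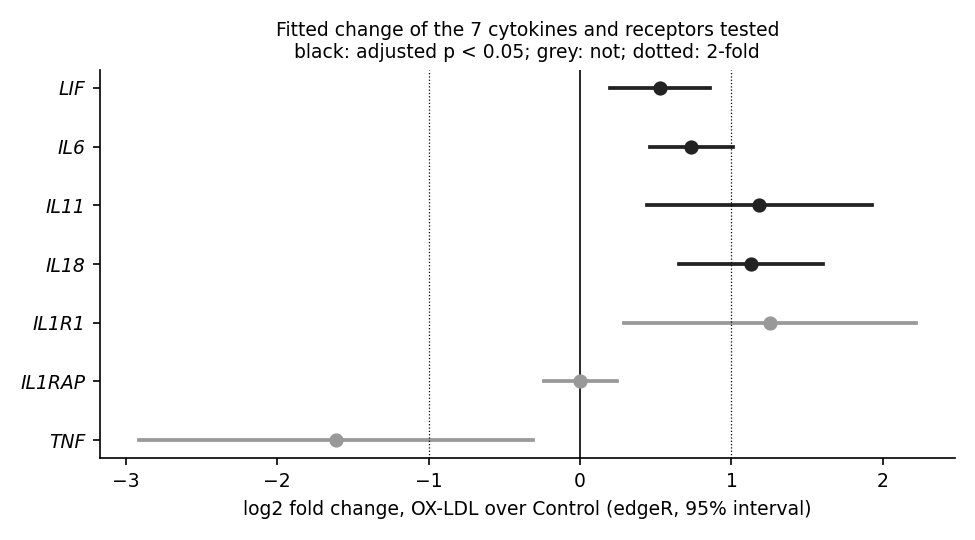
Log2 fold change, OX-LDL over Control, of the 7 genes tested, with 95% intervals from edgeR. Points in black have an adjusted p-value under 0.05, points in grey do not, and dotted lines mark a 2-fold change. The intervals of LIF, IL6, IL11 and IL18 in black and of IL1R1 in grey lie to the right of 0. The interval of IL1RAP is centred on 0 and that of TNF runs from -2.91 to -0.31.

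In all, 7 of the 10 genes reached the minimum of 0.1 FPKM and could be tested, and the other 3 (IL1A, IL1B and CSF1R) could not. TNF passed the minimum only through Control, with a mean of 0.319 FPKM there and 0.0974 FPKM in OX-LDL. Of the 7, 4 were called higher by edgeR's adjusted p-value, beside 7.91% of all genes tested, and 0 lower, beside 7.42%. At an unadjusted p under 0.05, which 30.4% of all genes tested had, 5 were higher and 1 was lower (TNF), and DESeq2 also called 0 lower. The median log2 fold change of the 7 was 0.73. With a change of at least 2-fold and p under 0.05 before adjustment, limits that 6.36% of all genes tested passed, 3 genes were higher (IL11, IL18 and IL1R1; 3.19% of all genes) and 1 was lower (TNF; 3.16% of all genes). IL6 and LIF changed by less than 2-fold. In FPKM, the groups did not overlap for 5 higher genes and 1 lower gene of the 7, beside 16.8% and 20.5% of all genes tested. Over the alternatives, IL1R1 was called in 2 of 15, and TNF and IL1RAP in 0. Over all 69 partner genes, 47 could be tested, 6 were called higher and 5 lower (23.4%, beside 15.3% of all genes). Their median log2 fold change was 0.12. With a minimum of 1 FPKM, 13 of 35 partner genes were called, beside 3152 of 12259 genes.

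**Figure D4:**
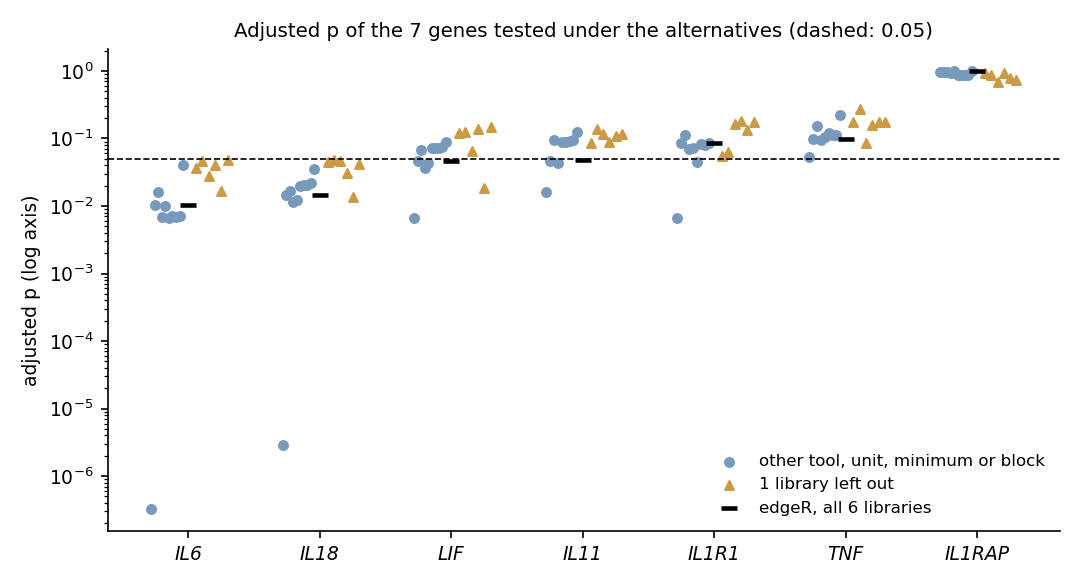
Adjusted p-value (log axis) of the 7 genes tested with all 6 libraries in edgeR (black bars), with another tool, unit, minimum or a block for the replicate number (blue circles), and with 1 library left out (triangles); the dashed line is 0.05. All points of IL6 and IL18 lie under the line, those of LIF and IL11 lie on both sides, and all of TNF and IL1RAP lie above it.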

How the data were processed

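Poly(A) RNA of 6 HK-2 libraries was sequenced as read pairs. The authors deposited 1 table with FPKM values, scaled by them per kilobase and library size with a count of 0 listed at 0.0001, and estimated counts that they did not scale, which are whole numbers and were not rounded. The submitters' processing notes name cutadapt 1.9, HISAT2 2.0.4, StringTie 1.3.4d, edgeR, DESeq2 and GRCh38. Strand use in counting and the annotation are not given in the sources used here. Coordinates are those of the table, and 81.2% of its identifiers shared with GENCODE 29 had identical coordinates.

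Genes whose mean reached 0.1 FPKM were fitted on their counts with edgeR 4.0.16 (R 4.3.3; TMM, glmQLFit, glmQLFTest) with the group as the only term. Benjamini-Hochberg adjustment ran over all genes fitted. Each standard error was obtained from the log2 fold change and the F statistic. An exact test of 3 against 3 libraries cannot go below 0.1, so none was used. limma 3.58.1, DESeq2 1.42.0, other minimums, scalings and pseudocounts, a replicate block and leaving out each library were alternatives. The fits were tested on simulated data of 19510 genes, in which edgeR recovered 52% of genes changed 2-fold and 87% of genes changed 4-fold. The changed genes were drawn only from those above a minimum mean count. These shares therefore do not cover genes with counts as low as those of TNF. Libraries of a group differed by a mean chi-square of 15.7 to 27.3 per gene, so none was deposited more than once.

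The 10 genes and the lists were chosen with earlier results of these data known. Genes named were all 10, their binding partners, and at most 4 called genes per partner list with the smallest p, except where stated. GGT1, listed as a tubule marker, matched 2 rows and was left out.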

Additional observations from a re-analysis of the deposited data

How the results depend on the processing

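IL6 and IL18 remained called in each alternative, while LIF, IL11 and most partners did not. Of the 10 genes, 4 were called. The number was 2 (IL6 and IL18) with no minimum level, with limma on log2(FPKM + 0.1), log2(FPKM + 0.01) or log2(TPM + 0.1), and with the replicate block, and from 2 to 3 with 1 library left out. It was 5 in DESeq2, with IL1R1 added, and 3 in limma on log2(FPKM + 1), with IL6, IL18 and IL1R1. The 11 called partner genes became 17 in DESeq2, 6 with the replicate block and from 5 to 11 with 1 library left out. Over all genes, the 2991 calls became 1636 with the replicate block, 4430 in DESeq2 and from 1161 to 2943 with 1 library left out. DESeq2 made 83 false calls in the simulation, against 9 by edgeR. That simulation drew counts with the spread that edgeR had estimated and changed 200 of 19510 genes. It therefore does not give the share of false calls of either tool in these data. Near 0, signs changed. IL1RAP had a log2 fold change of -0.0097 with no minimum and of -0.030, -0.026, -0.031 and -0.034 in limma (pseudocounts of 0.1, 1 and 0.01, and TPM), and from -0.074 to 0.077 with 1 library left out. IL6R was at -0.018, -0.029 and -0.030 in limma (0.1, 0.01 and TPM) and from -0.17 to 0.58 with 1 library left out, IL11RA from -0.052 to 0.23 and IL34 from -0.48 to 0.37. The cause of these shifts was not tested.

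The labels do not say what the replicate numbers mark, and deviations of same-numbered libraries correlated by -0.066, -0.016 and 0.015, so the numbers were not taken as pairs, and not every library correlated best with its own number. Values of IL1A, IL1B, TNF, CSF1R and IL11 rest on 0 to 23.5 read pairs per library.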

Other observations

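The genes of the IL-1 family lie in neighbouring groups on chromosome 2, and their levels differed within each group. Of 8 ligand and antagonist genes between 112773915 and 113134016 (IL1A, IL1B, IL37, IL36G, IL36A, IL36B, IL36RN and IL1RN), 4 had 0 counts in all 6 libraries, and only IL1A and IL1B exceeded 12 counts in a library, with at most 34. Of 6 receptor genes between 101991960 and 102452565, IL1R2, IL1R1, IL1RL2 and IL18R1 exceeded 12 counts in a library, while IL1RL1 and IL18RAP had 0 counts throughout. IL1RL2, the receptor of the IL-36 cytokines, was the most abundant of these receptors in Control, with 1.29 ± 0.225 FPKM beside 1.51 FPKM in OX-LDL (SD, n = 3; log2 fold change 0.26, edgeR adjusted p = 0.482).

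LTA, TNF and LTB lie within 10.5 kb on chromosome 6. LTA had 19, 8 and 0 counts in Control and 4, 0 and 8 in OX-LDL, which was too low to be tested. CSF2, a growth factor gene of the CSF list, was at 3.26 ± 1.19 FPKM in Control beside 1.84 FPKM with OX-LDL, without overlap, and had a log2 fold change of -0.79 (edgeR adjusted p = 0.135). The proximal tubule marker PAX8 fell, with a log2 fold change of -1.23 (adjusted p = 0.0182), while CDH6, another marker of that list, rose by 1.36 (adjusted p = 0.0047).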
